A study of Rattus norvegicus with 9 samples.

Results

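Subunits of the GABA-A receptor were read in the supraoptic nucleus of the rat, the hypothalamic cell group whose large neurons send vasopressin and oxytocin to the posterior pituitary. The set comprised every probe set of the Affymetrix array whose only gene symbol was Gabra2, Gabra3, Gabra4, Gabra5, Gabrb1, Gabrb2 or Gabrg1, which gave 7 of the 4736 genes with such a probe set, and 11 of 8740 probe sets. The 9 arrays carried total RNA of the nucleus from male Sprague Dawley rats between 10 and 12 weeks old. Control tissue was compared with tissue taken after 1 day and after 3 days of dehydration, with 3 arrays in each group, which the titles letter a, b and c. No transgene, drug or other treatment is named. Whether an array holds 1 animal or a pool is not stated, so the p-values below measure sample-to-sample spread that may be partly technical.

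GABA-A receptors are chloride channels of the Cys-loop family, built as rings of subunits around a central pore. GABA binds between alpha and beta subunits, and benzodiazepines bind between alpha and gamma subunits, so the alpha and gamma isoforms in a receptor set much of its pharmacology and its place at or away from the synapse. GABA synapses are a main inhibitory input to magnocellular neurons, and the effect of the current depends on the chloride gradient that cation-chloride cotransporters keep up.

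None of the 7 subunit genes passed the test at either time, and the subunits did not move together. The differences of the 4 alpha subunits and of Gabrg1 from control were all smaller than their standard errors. The 3 probe sets of the 2 beta genes all stood below control at both times, most of all Gabrb1, and also did not pass. Without arrays 1-day c and 3-day b, left out after seeing the data, the 1-day difference was -0.091 for Gabrb1. Those of Gabrb2 were then 0.10 and 0.018. The plainest pattern lay across the replicate letters: Gabrg1 was highest on all 3 arrays of letter b and lowest on all 3 of letter c, whatever the group. This pattern was picked after seeing the data, and the letters did not overlap for 4.48 percent of all tested probe sets.

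The values are MAS5 signals on a linear scale, 1 per probe set and array. A probe set's brightness depends on its own probes, so signals are compared between arrays and never between subunits. Of the 11 probe sets, 8 reached a mean signal of 23.1, the 40th percentile over all probe sets, and were tested; each of the 7 genes kept at least 1. The 3 others lay near the floor on most arrays: the further probe set of Gabra3 (X51991_at) read between 1.7 and 24.9, that of Gabra4 (S55933_i_at) between 0.5 and 13.2 and that of Gabra5 (L08494cds_s_at) between 2.4 and 13. In the RefSeq gene table, Gabrb1, Gabra4, Gabra2 and Gabrg1 form 1 cluster with a single other protein-coding gene, Cox7b2, among them. Gabra5 lies beside Gabrg3, Gabrb2 beside Gabra6, and Gabra3 near Gabre and Gabrq.

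**Figure D1:**
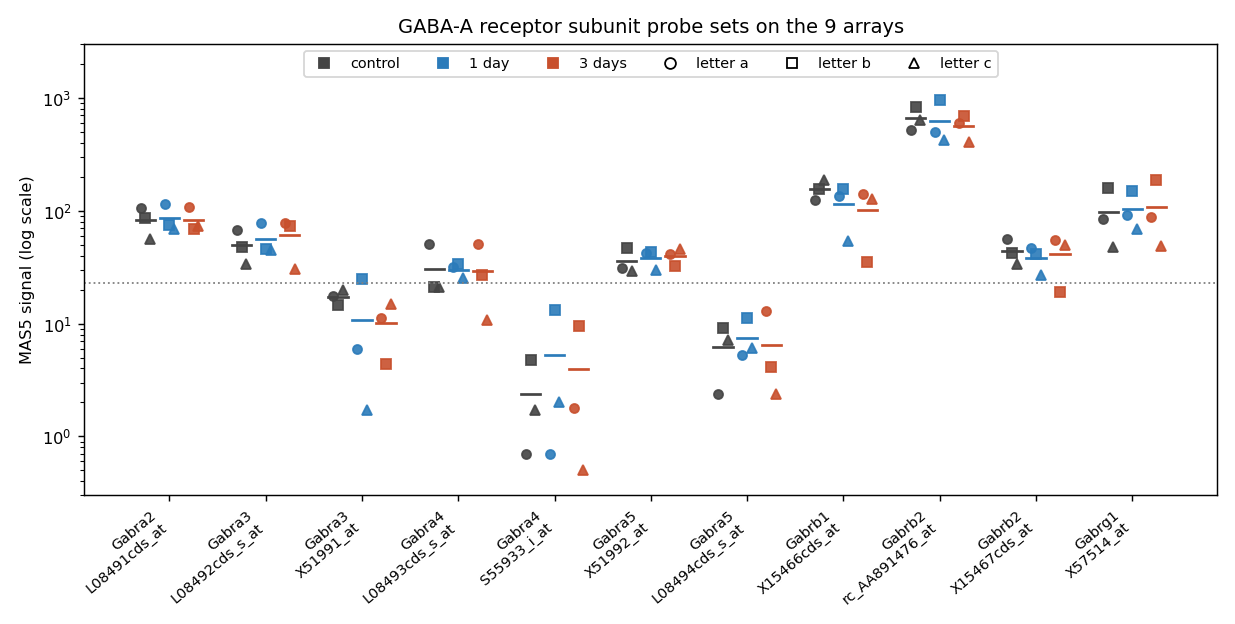
MAS5 signal (log scale) of the 11 subunit probe sets on the 9 arrays; colour gives the group, marker shape the replicate letter, horizontal bars the group means (n = 3) and the dotted line the filter at 23.1. The groups overlap for every tested probe set, while the Gabrg1 arrays of letter b (149.1 to 186.0) lie above those of letter a (85.1 to 91.7) and of letter c (47.3 to 68.4).

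The alpha subunits were described first. Gabra2 encodes a subunit found at many inhibitory synapses of the forebrain. Its signal (probe set L08491cds_at) on arrays a, b and c was 106.7, 85.7 and 56.1 in control, 113.5, 75.0 and 68.9 at 1 day and 108.2, 68.5 and 73.5 at 3 days. Array a was the highest in each group, and the groups overlapped. The difference from control, as log2 of signal plus 4, was 0.06 ± 0.33 at 1 day and 0.026 ± 0.33 at 3 days (log2 fold change ± SE; limma adjusted p = 1.00 for both). The 95% interval at 3 days ran from 0.611-fold to 1.70-fold, so in this fit, which left out the letter, a 1.5-fold change in either direction was not resolved. With the letter added to the model as a block, the interval was -0.48 to 0.53 on the log2 scale, short of 1.5-fold in either direction. The group means were 82.8 ± 25.4, 85.8 ± 24.2 and 83.4 ± 21.6 (SD, n = 3).

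Gabra3 is an alpha isoform that is prominent in monoaminergic and hypothalamic neurons. Its tested probe set, L08492cds_s_at, read 68.0, 47.4 and 34.0 on control arrays a, b and c, 78.5, 45.5 and 45.3 at 1 day, and 77.7, 73.9 and 30.5 at 3 days. In each group array a was the highest and array c the lowest. The difference was 0.17 ± 0.42 at 1 day and 0.21 ± 0.42 at 3 days (limma adjusted p = 1.00 for both), higher in 2 of 3 letter pairs at each time.

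Gabra4 encodes a frequent partner of the delta subunit in extrasynaptic receptors. Its control signals (L08493cds_s_at) were 50.3, 21.0 and 20.9, the 1-day signals 31.5, 33.4 and 25.5 and the 3-day signals 50.5, 26.7 and 10.7. The 1-day arrays lay close together and within the range of the controls, while the 3-day arrays spanned both ends. The difference was 0.071 ± 0.54 at 1 day and -0.15 ± 0.54 at 3 days (limma adjusted p = 1.00 for both), with a 95% interval at 3 days from 0.394-fold to 2.05-fold.

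Gabra5, an alpha isoform linked to tonic inhibition in the hippocampus, read (X51992_at) 30.8, 46.8 and 29.0 in control, 41.8, 43.2 and 29.8 at 1 day and 41.0, 32.3 and 45.8 at 3 days. No letter was high or low throughout. The difference was 0.11 ± 0.35 at 1 day and 0.16 ± 0.35 at 3 days (limma adjusted p = 1.00 for both). Mean signal was 35.5 ± 9.8 in control tissue, 38.3 ± 7.4 after 1 day and 39.7 ± 6.8 after 3 days (SD, n = 3), an order in which neighbours did not differ beyond their spread.

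The beta subunits are required for assembly of most receptors and help form the GABA site. Gabrb1 (X15466cds_at) read 125.4, 155.4 and 187.4 in control, 134.4, 155.0 and 54.1 at 1 day and 140.7, 34.9 and 126.4 at 3 days. Of the 6 dehydrated arrays, 1-day c and 3-day b were low, and the other 4 lay within the control range. The difference from control was -0.54 ± 0.52 at 1 day and -0.81 ± 0.52 at 3 days, with an unadjusted p of 0.15 in limma at 3 days, the smallest among the 7 subunit genes of the set (adjusted p = 1.00). Mean signal was 156 ± 31 in control tissue, 114 ± 53 after 1 day and 101 ± 57 after 3 days (SD, n = 3). Without 1-day c and 3-day b, an alternative chosen after seeing the data, the differences were -0.091 ± 0.29 and -0.20 ± 0.29. The array 1-day c is 1 of the 2 arrays whose brightest signal was low (2239, and 2105 on control c, against 3867 to 6295 on the other 7). On array 3-day b the brightest signal was 4854. Of all tested probe sets 5.47 percent had 1-day c and 3-day b as their 2 lowest arrays, and 0.591 percent had both more than 2-fold below every other array.

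Gabrb2 had 2 tested probe sets, which disagreed over the arrays. The one made from an expressed sequence tag, the brighter of the pair (rc_AA891476_at), read 513.7, 822.8 and 634.7 in control, 501.8, 956.3 and 424.2 at 1 day and 602.4, 691.8 and 407.4 at 3 days. Array b was the highest in every group. The difference was -0.13 ± 0.34 at 1 day and -0.22 ± 0.34 at 3 days (limma adjusted p = 1.00 for both), and the 95% interval at 3 days ran from 0.507-fold to 1.46-fold. The probe set on the coding sequence (X15467cds_at) read 56.6, 42.2 and 34.0, then 46.7, 41.4 and 26.9, then 55.3, 19.2 and 49.4. Here 1-day c and 3-day b were again the lowest arrays, and array b was never the highest. It differed by -0.19 ± 0.43 and -0.18 ± 0.43. Over the 9 arrays the 2 probe sets of Gabrb2 had r = -0.13, whereas the coding-sequence probe set and that of Gabrb1 had r = 0.78, a description over arrays that share groups and letters.

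The promoters of Gabrb1 and Gabrb2 are shown because these genes encode the subunit class whose probe sets all stood below control. None of these probe sets passed, and at 1 day the sign of each reversed in at least 1 alternative fit, so the choice marks no established change. RefSeq promoter windows of GRCr8, from 250 bases before to 50 after the gene's start, were found for 6 of the 7 genes, not for Gabra2. The longest run that the beta pair shared on the same strand was 11 bases. Gabra5 and Gabra4 also shared a run of 11 bases, on opposite strands, which occurs in 0.108 percent of all windows. Gabrb1 shared runs of 10 bases with Gabra4 and with Gabrg1. Within stretches of 72 and 68 bases the beta pair shared 3 runs of at least 10 bases in the same order. They are in capitals in the stretches chr14:36902862-36902933 on the minus strand (Gabrb1) and chr10:27439687-27439754 on the plus strand (Gabrb2), each written 5′ to 3′ along its gene.
Gabrb1: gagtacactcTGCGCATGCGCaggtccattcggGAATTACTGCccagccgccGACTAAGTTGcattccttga
Gabrb2: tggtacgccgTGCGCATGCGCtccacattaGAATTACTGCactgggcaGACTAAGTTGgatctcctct

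The first run, TGCGCATGCGC, has the form known as the site of nuclear respiratory factor 1. On either strand it occurs in 0.598 percent of the 33469 promoter windows, the run GAATTACTGC in 0.0388 percent and GACTAAGTTG in 0.0149 percent. All 3 together occur in 2 windows, those of Gabrb1 and Gabrb2. The runs were found by comparing this pair, so these counts describe the pair and test nothing. Letters of a cAMP response element (TGACGTCA) were in 0 of the 6 windows, against 1.83 percent of all, and those of an AP-1 site (TGAGTCA or TGACTCA, both strands) in 0 of 6, against 4.63 percent. A match or its absence in these windows says nothing of what binds there.

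Gabrg1 encodes a gamma subunit with a restricted distribution in brain, which is also found in glia. Its probe set, X57514_at, read 85.1, 157.8 and 47.3 on control arrays a, b and c, 91.7, 149.1 and 68.4 at 1 day and 87.5, 186.0 and 48.8 at 3 days. The groups overlapped almost fully, and the letters not at all. The difference from control was 0.17 ± 0.53 at 1 day and 0.10 ± 0.53 at 3 days (limma adjusted p = 1.00 for both). With the letter as a replicate block its SE fell from 0.53 to 0.22, and the 95% interval at 3 days narrowed from a span of -1.07 to 1.27 to one of -0.41 to 0.61 on the log2 scale. It still did not pass (limma adjusted p = 0.959 with the block).

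Over the subunits as a group, 5 of the 8 tested probe sets stood above control at 1 day and 3 below, with a median of 0.066, against 52.7 percent above and a median of 0.02 over all 5247 tested. At 3 days 4 stood above and 4 below, with a median of -0.063 (51.7 percent above and a median of 0.016 over all tested). Between 1 and 3 days 3 were higher at the later time and 5 lower, with a median of -0.052, against 0.0013 over all. Leaving out single arrays moved these medians, often across 0: the 1-day median was -0.16 without control c, -0.046 without 1-day a, -0.059 without 1-day b and 0.18 without 1-day c. The 3-day median was 0.087 without control a, 0.014 without control b, -0.27 without control c, -0.22 without 3-day a and 0.079 without 3-day c. The median between the times was 0.013 without 1-day a, 0.045 without 1-day b, -0.26 without 1-day c, -0.20 without 3-day a, -0.028 without 3-day b and 0.086 without 3-day c. By subunit class, 4 of 4 alpha genes, each by its tested probe set, were above control at 1 day and 3 of 4 at 3 days. The 3 probe sets of the 2 beta genes, with Gabrb2 counted by both of its own, were below control at both times. No member of either class passed. The 1-day and 3-day differences share the control arrays.

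Between 1 and 3 days the largest differences were -0.27 ± 0.52 for Gabrb1 and -0.22 ± 0.54 for Gabra4, and the other 6 probe sets lay between -0.087 and 0.052. In limma 0 of the 8 passed the threshold of 0.05 on the adjusted p in any of the 3 comparisons or in the F test over the groups, where 0 percent of all tested probe sets did. At an unadjusted p under 0.05 the count of subunit probe sets was also 0, against 1.01 percent of all at 1 day, 1.72 percent at 3 days and 1.83 percent between the times. The groups overlapped for all 8 probe sets in all 3 comparisons, where 4.21, 7.74 and 5.72 percent of all tested probe sets did not overlap. The SE of a subunit's difference lay between 0.33 and 0.54, with a median of 0.43. With the letter as a replicate block the median SE was 0.31. Without the block, more than small changes went unresolved. At 3 days the interval ran from 0.394-fold to 2.05-fold for Gabra4 and from 0.477-fold to 2.42-fold for Gabrg1. That of Gabrb1 ran from 0.256-fold to 1.27-fold, and that of Gabra2, with an SE of 0.33, from 0.611-fold to 1.7-fold. At 3 days the vasopressin gene Avp (0.95 ± 0.33) and the oxytocin gene Oxt (1.72 ± 1.05) did not pass either. A subunit that did not pass is therefore not shown to be unchanged. In bulk tissue, fewer cells of a type and less RNA per cell cannot be told apart.

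**Figure D2:**
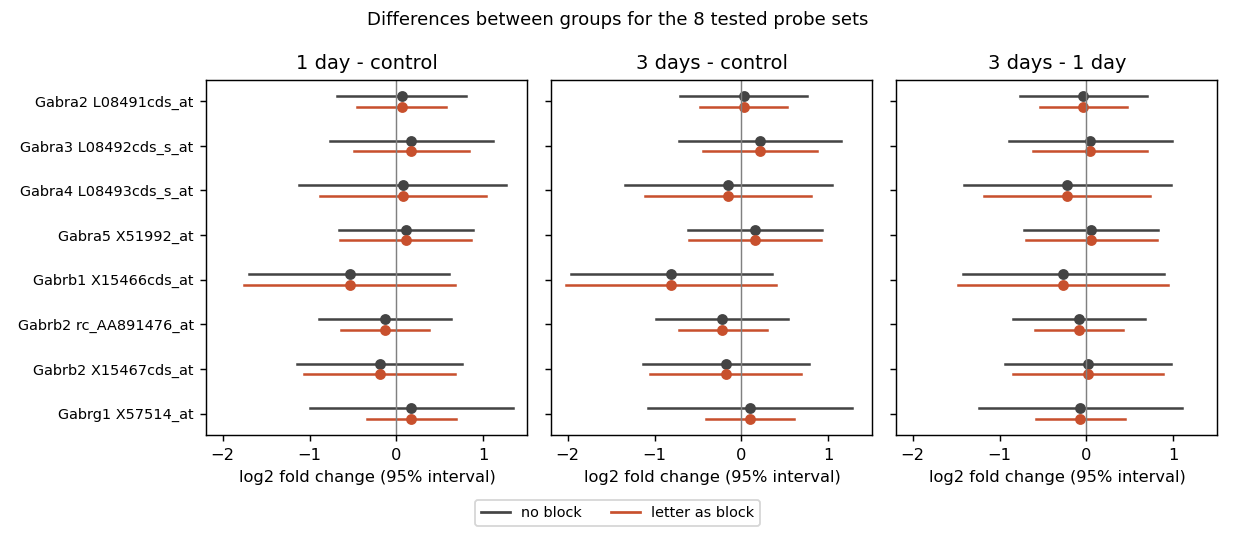
Log2 fold change with its 95% interval for the 8 tested probe sets in the 3 comparisons, without a block (dark) and with the replicate letter as a block (red). Every interval spans 0; the block narrows that of Gabrg1 most and leaves that of Gabrb1 (-1.96 to 0.35 and -2.02 to 0.40 at 3 days) about as wide.

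The letter accounted for more of the spread of most subunits than the group did. For Gabrg1 it took 94.4 percent of the sum of squares of the log2 values over the 9 arrays and the group 1.22 percent. The letter's share was 86.2 percent for Gabra2, 76.7 for Gabra3, 71.1 for the brighter Gabrb2 probe set and 65.1 for Gabra4. It was low for Gabra5 (13.5 percent) and Gabrb1 (7.08 percent), the 1 subunit for which the group's share was larger (22.0 percent). The median share of the letter was 68.1 percent over the 8 probe sets and 43.6 percent over all tested, and the letter's share exceeded the group's in 7 of 8 and in 73.7 percent of all.

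In a limma F test of the letter, with the group in the model and added after seeing the data, Gabrg1 was the 1 subunit called (adjusted p = 0.0298), and 3.56 percent of all tested probe sets were called. Its log2 level was 0.86 ± 0.22 higher on arrays b than on arrays a, and 0.66 ± 0.22 lower on arrays c (a difference of -0.66). Its 3 letters did not overlap, as for 4.48 percent of all probe sets. The call was lost after median centring (adjusted p = 0.0529), without the intensity trend (0.0555), without both control c and 1-day c (0.0761) and without any 1 of the arrays control a, control b, control c, 1-day a, 3-day a, 3-day b or 3-day c, with a range from 0.0165 to 0.110 over the arrays left out. The summed signal of the 7 measured neuronal markers ran in the same order, 6482.0 to 6863.7 on arrays b, 5675.0 to 6371.3 on a and 4861.3 to 5930.3 on c, but of the 7 only Syt1 had that order in every group. Uchl1 was highest on a and lowest on c in every group, and Map2 highest on b and lowest on a. That of the 9 astrocyte markers did not (7460.1 to 7862.3, 8524.8 to 10567.0 and 5400.6 to 9296.6). No marker of either list was at 0, but only 15 signals were over all probe sets and arrays. The summed signal of the 4 microglial and macrophage markers was highest on arrays c (249.3 to 353.8, against 151.9 to 187.5 on a and b), most of it from C1qb, the 1 of them that was tested, and Aif1 was highest on a. That of the 5 oligodendrocyte markers was highest on arrays a (7255.2 to 7661.8, against 2849.3 to 6553.9 on b and c), while Mog was lowest on a in every group and Cnp highest on b. The summed signal of the 7 markers of neighbouring hypothalamic nuclei was lowest on arrays b (1474.1 to 1641.3, against 1872.3 to 3316.6 on a and c). Within that list Cartpt was highest on b at 1 and 3 days. The part of these markers in the Gabrg1 pattern was not tested, and the meaning of the letter is not given in the labels.

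**Figure D3:**
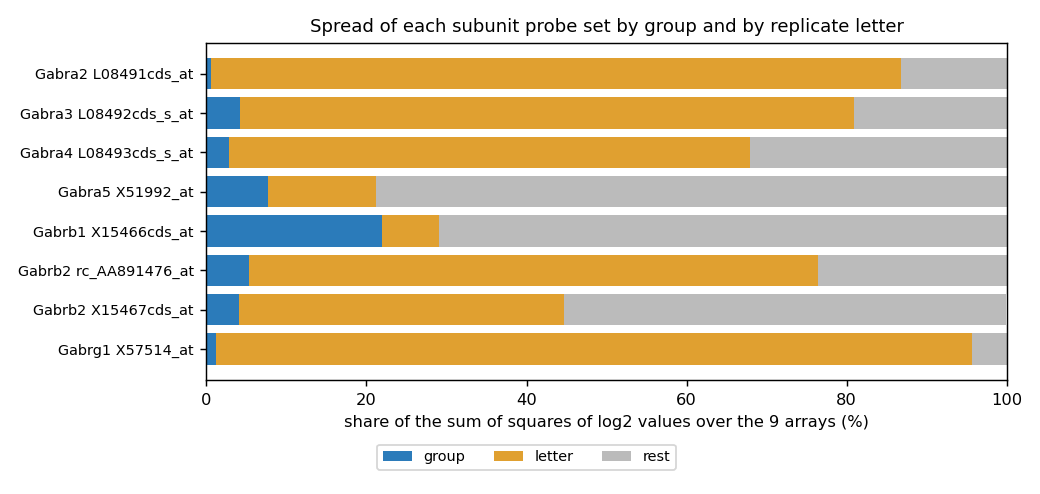
Share (percent) of the sum of squares of log2 values over the 9 arrays that falls to the group, the replicate letter and the rest, for the 8 tested probe sets. The letter takes 94.4 percent for Gabrg1 and 7.08 percent for Gabrb1, and the group at most 22.0 percent.

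Gabra2, Gabra3 and Gabra4 stood lower on arrays c than on arrays a, by log2 differences of -0.70 ± 0.22, -0.97 ± 0.29 and -1.09 ± 0.42, and did not pass the letter test (limma adjusted p = 0.138, 0.128 and 0.213). Their pairwise r over the 9 arrays was 0.62 to 0.78, while r of Gabra5 with the 3 others was -0.23 to 0.38. The brighter Gabrb2 probe set stood 0.60 ± 0.22 higher on b than on a and had r = 0.72 with Gabrg1. The genes most like it among 4351 named probe sets were Morf4l2 (r = 0.94), Pth1r (0.92) and Ddx21 (0.91), over 9 arrays. Members of the cluster around Gabra2 did not share 1 pattern: r ran from -0.32 for Gabrb1 with Gabrg1 to 0.62 for Gabra2 with Gabra4. In between, r was 0.32 for Gabra4 with Gabrg1 and 0.029 for Gabra4 with Gabrb1. For Gabra2 it was 0.24 with Gabrb1 and 0.19 with Gabrg1. These correlations describe arrays that share letters.

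The rest of GABA signalling was read from a list of 48 genes, of which 33 were on the array with a single-symbol probe set and 23 of those were tested. The other genes of the list were not tested here. In limma 0 of the 23 passed in either direction at 1 day, at 3 days or between the times, and 0 had an unadjusted p under 0.05. With the letter as a replicate block 0 passed, and the count at an unadjusted p under 0.05 was 0 at 1 day, 1 at 3 days (Ubqln1) and 2 between the times (Ubqln1 and Gabarap), against 2.59, 5.15 and 5.24 percent of all tested probe sets. Each gene was counted by its brightest probe set. At 1 day 13 were higher and 10 lower than control (median 0.013), and at 3 days 11 were higher and 12 lower (median -0.041). Between the times 6 were higher and 17 lower, with a median of -0.19 against 0.0013 over all tested probe sets.

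Among the other GABA-A subunits, Gabrd, the delta subunit of extrasynaptic receptors, stood at 0.66 ± 0.58 at 1 day and 0.063 ± 0.58 at 3 days. Its difference at 1 day was 2.25 in letter pair b and -0.99 in pair a, and its other tested probe set gave -0.55 ± 0.42 at 1 day and 0.25 ± 0.42 at 3 days. Gabra6 stood at 0.91 ± 0.55 and 0.44 ± 0.55. Its 1-day difference was -0.06, 2.65 and 0.14 in letter pairs a, b and c, with signals of 11.8 on control b and 95.2 on 1-day b. Gabrr1, a rho subunit best known from retina, stood at 0.20 ± 0.57 and 0.056 ± 0.57. Of the GABA-B receptor genes, the brightest probe set of Gabbr1 stood at -0.039 ± 0.51 and 0.20 ± 0.51, and its other tested ones at 0.28 ± 0.41 and 0.38 ± 0.42 at 1 day and 0.35 ± 0.41 and 0.051 ± 0.42 at 3 days. The brightest of Gabbr2 stood at 0.013 ± 0.24 and -0.25 ± 0.24, and the other tested ones at -0.71 ± 0.64 and -0.54 ± 0.86 at 1 day and -0.27 ± 0.64 and -0.30 ± 0.86 at 3 days.

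Of the synthetic enzymes, Gad1 read 760.3, 1362.1 and 602.6 in control, 628.3, 1092.7 and 49.8 at 1 day and 895.8, 648.5 and 567.9 at 3 days. Array 1-day c stood far below the other 8, and the difference at 1 day, -1.36 ± 0.87, was made up of -0.27, -0.32 and -3.50 in letter pairs a, b and c. Gad2 showed no such drop, with 111.8 on 1-day c and a difference of 0.10 ± 0.28. The vesicular GABA transporter Slc32a1 read between 812.2 and 1227.5 on all arrays and differed by -0.048 ± 0.24 at 1 day and 0.053 ± 0.24 at 3 days. The breakdown enzyme Abat stood at -0.58 ± 0.64 and 0.042 ± 0.64, but its other tested probe set gave -1.61 ± 0.78 at 1 day and -1.0 ± 0.78 at 3 days, with a signal of 6.9 on 1-day c. The glial GABA transporter Slc6a11 stood at 0.32 ± 0.33 and 0.26 ± 0.33.

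Slc12a5, the neuronal cotransporter that exports chloride, read 521.0, 486.9 and 535.0 in control, 454.5, 450.2 and 555.6 at 1 day and 562.6, 708.4 and 580.9 at 3 days. Each 3-day signal exceeded each control signal, by 0.26 ± 0.22, which did not pass (limma adjusted p = 1.00; 0.902 with the letter as a block). Slc12a2, which imports chloride, stood at 0.0078 ± 0.31 and -0.23 ± 0.31. Its other tested probe sets gave -0.11 ± 0.46 and -0.36 ± 0.76 at 1 day and -0.16 ± 0.46 and -0.22 ± 0.76 at 3 days.

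Genes of receptor scaffolding and traffic included Gphn, which encodes the postsynaptic anchor gephyrin, at 0.25 ± 0.32 and -0.12 ± 0.32. Gabarap, a receptor-associated protein, stood at 0.14 ± 0.23 and -0.24 ± 0.23. Ubqln1, which stabilises receptor subunits in the cell, was lower at 3 days in all 3 letter pairs (-0.60, -0.27 and -0.62), at -0.50 ± 0.32. It did not pass with the block either (limma adjusted p = 0.873). Zdhhc3, an enzyme that palmitoylates the gamma subunits, stood at -0.42 ± 0.26, and Dbi, the precursor of peptides that bind the benzodiazepine site, at -0.46 ± 0.27 at 3 days. For both, each 3-day signal was under each control signal. With Slc12a5 they were the 3 of the 23 genes whose 3-day and control signals did not overlap, as for 7.74 percent of all tested probe sets. Nsf, an ATPase of membrane fusion and receptor traffic, stood above control by about as much, at 0.46 ± 0.27 and 0.43 ± 0.27. Its other tested probe set gave 0.11 ± 0.46 and 0.47 ± 0.46. Plcl1, which binds receptor subunits and Gabarap, stood at 0.34 ± 0.46 and 0.15 ± 0.46. Its other tested probe sets disagreed in sign at 1 day (0.64 ± 0.35 and -0.47 ± 0.50) and gave 0.45 ± 0.35 and 0.00058 ± 0.50 at 3 days.

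**Figure D4:**
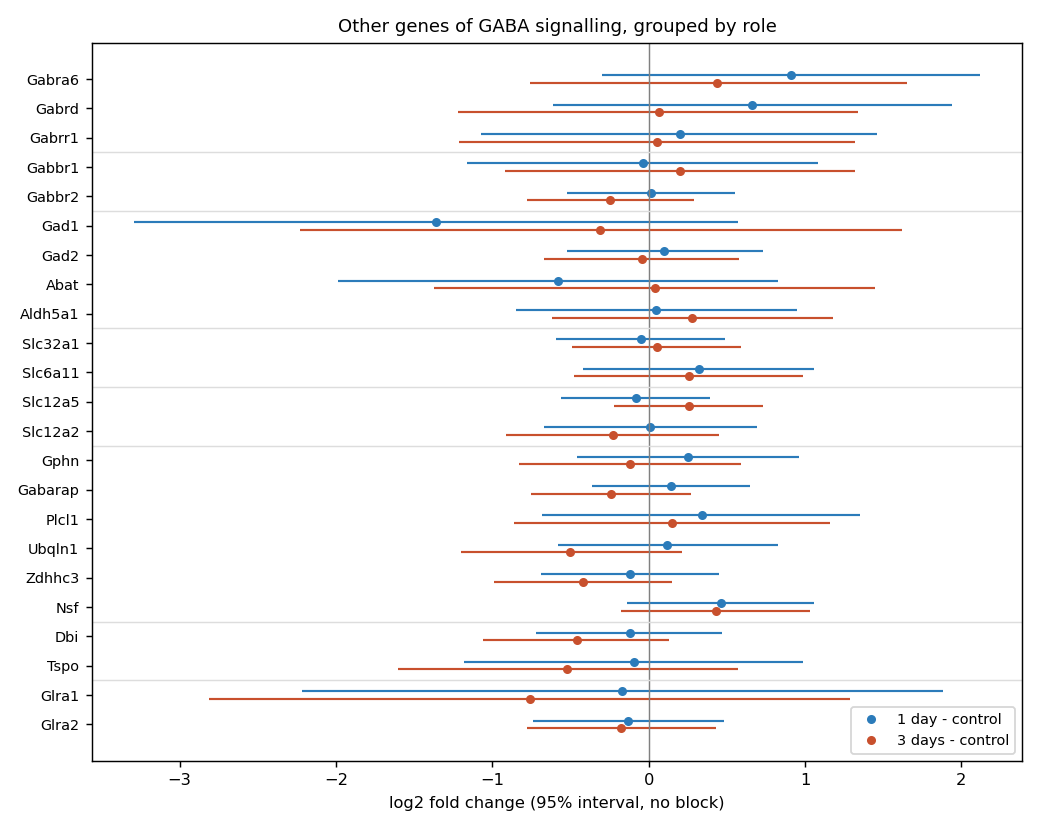
Log2 fold change with its 95% interval (no block) for the 23 tested genes of GABA signalling outside the 7 subunit genes, at 1 day (blue) and 3 days (red) against control, with grey lines between roles. Every interval spans 0; that of Gad1 at 1 day reaches from -3.29 to 0.57.

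The tissue label was checked against markers of magnocellular neurons and of neighbouring hypothalamic nuclei. Avp, the vasopressin gene, read between 1622 and 5678 on the 9 arrays, and Pdyn between 448 and 1120. None of the 6 magnocellular markers was at 0, but only 15 signals were at 0 over all probe sets and arrays. A signal above 0 therefore says little of the tissue. Of the 7 markers of neighbouring nuclei, Sst read between 450.5 and 1118.5 and Hcrt between 161.3 and 844.4. These 7 summed to 1474.1 to 3316.6 (control), 1641.3 to 2590.5 (1 day) and 1500.9 to 2635.0 (3 days). Whether the tissue was the supraoptic nucleus alone was not tested. Oxt, the oxytocin gene, read 208.3 on control c and 272.0 on 1-day c against 2331 to 4356 on the other 7, so these 2 arrays stand apart. Without both, the median of the subunit differences was 0.029 at 1 day and -0.27 at 3 days, against 0.066 and -0.063 with them, and still 0 subunits were called. By group, the 9 astrocyte markers summed to 5400.6 to 8524.8 (control), 5558.0 to 8971.7 (1 day) and 7460.1 to 10567.0 (3 days), and the 7 neuronal markers to 4861.3 to 6576.3, 4948.8 to 6482.0 and 5930.3 to 6863.7. The 6 magnocellular markers summed to 3713.7 to 7379.6, 3718.6 to 8271.0 and 9439.0 to 12351.3, most of it from Avp and Oxt. The 4 markers of endothelium and blood, most of it from the haemoglobin gene Hbb, summed to 1703.4 to 1763.4, 1776.9 to 2465.1 and 982.2 to 1243.2. Both sums separated the 3-day arrays from the rest, but not every marker followed. At 3 days Gal (-0.26 ± 0.32) and Scg2 (-0.045 ± 0.46) stood below control, and Pecam1 (0.44 ± 0.38) stood above it. The part of these lists in the subunit differences was not tested.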

How the data were processed

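RNA of 9 rat supraoptic nucleus samples was labelled by in vitro transcription with biotinylated nucleotides, per the labels. The deposited values are linear intensities that the authors computed by MAS5, which the submitters' processing notes name; version, detection calls and build are not given in the sources used here. Of 8799 probe sets, 59 Affymetrix controls were left out. Of the other 8740, 7006 had 1 symbol in the platform annotation, 308 several and 1426 none. By gene ID, 6985 of the 7006 matched RefSeq (GRCr8).

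From these, log2(signal + 4) was computed, and probe sets with a mean signal under 23.1 (40th percentile) were left out, leaving 5247. Fold changes on this scale understate those of dim genes. With limma 3.58.1 (R 4.3.3), a model of 3 group means was fitted over the 9 arrays (6 residual degrees of freedom), with an intensity trend, two-sided moderated tests and Benjamini-Hochberg adjustment over all 5247. The code was tested on simulated data. Alternatives changed the pseudocount (none or 16), the filter (none or the 60th percentile), the scaling (quantile or median), the variance prior (constant or robust) and the arrays fitted (the groups compared alone, each array omitted, 2 pairs omitted), or took the letter as a replicate block.

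All 9 array pairs with the same letter in different groups deviated together (r from 0.17 to 0.47 after subtracting group means, and -0.33 to 0.12 for other letters), so arrays of the same letter were more alike. The labels do not say what the letters pair, so the main fit left the letter out and the replicate block was an alternative. Every subunit probe set was named, and of the GABA list any tested gene, by its brightest probe set. The members, lists and tests were chosen with earlier results of these data known. Figures used Python 3.11.15 and matplotlib 3.10.9.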

Additional observations from a re-analysis of the deposited data

How the results depend on the processing

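The counts of probe sets called stayed at 0 in all 3 comparisons under all 21 alternatives, and 0 subunit probe sets were called in any (smallest adjusted p = 0.885). A replicate block on the letter gave counts of 0 and changed no call; its smallest adjusted p, 0.885, was that of Gabrb1 at 3 days. The sign of a subunit's difference was not stable: of 495 values 59 had the opposite sign, and 22 of the 24 differences changed sign at least once. The exceptions were Gabra5 and Gabrb1 at 3 days. After quantile normalization Gabra2 stood at -0.0061 at 1 day and -0.0065 at 3 days, and after median centring at -0.011 at 3 days. Without both control c and 1-day c the 1-day values were -0.049 for Gabra2, -0.016 for Gabra4, 0.047 for Gabrb1 and 0.091 for the brighter Gabrb2 probe set. The 3-day values were then -0.22 for Gabra2, -0.012 for Gabra3 and -0.31 for Gabrg1, and between the times -0.083 for Gabra3, -0.10 for Gabra5 and -0.20 for the coding-sequence probe set of Gabrb2. Without both 1-day c and 3-day b the Gabrb2 probe sets stood at 0.10 and 0.018 at 1 day, the second of them at 0.25 and Gabrg1 at -0.38 at 3 days, and Gabra3 at -0.27 between the times. Leaving out 1 array at a time gave, at 1 day, ranges of -0.18 to 0.26 for Gabra2, -0.074 to 0.41 for Gabra3, -0.12 to 0.44 for Gabra4, -0.0082 to 0.30 for Gabra5, -0.48 to 0.10 and -0.35 to 0.018 for Gabrb2 (brighter, then coding sequence) and -0.24 to 0.59 for Gabrg1. At 3 days they were -0.22 to 0.22 for Gabra2, -0.012 to 0.62 for Gabra3, -0.61 to 0.34 for Gabra4, -0.38 to 0.0012 and -0.43 to 0.25 for Gabrb2 and -0.38 to 0.54 for Gabrg1. Between the times they were -0.23 to 0.18 for Gabra2, -0.18 to 0.44 for Gabra3, -0.68 to 0.27 for Gabra4, -0.10 to 0.18 for Gabra5, -0.72 to 0.34 for Gabrb1, -0.32 to 0.26 and -0.24 to 0.44 for Gabrb2 and -0.55 to 0.37 for Gabrg1. The number of probe sets called for the letter, 187, was 284 with a pseudocount of 16, 316 after median centring, 66 without the intensity trend, 42 without both control c and 1-day c, and 10 to 264 with 1 array left out. Counting all 11 probe sets, 5 stood above control at 3 days, against 4 of 7 genes. The cause of these changes was not tested. With 3 arrays a group, the number of arrays limits what can be seen. The mean signals of the tested subunit probe sets lay between the 46.4 percentile (Gabra4) and the 94.8 percentile (Gabrb2) of all probe sets. Their level over background was not tested.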
